A study of Mus musculus with 1989 samples.

Results

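DP sorted thymocytes are the cells that the scATAC-seq table labels as DP, and those with a total of at least 1000 counts over all peaks were kept, which left 116 of 125 cells. They were 116 of the 478 cells that passed the same minimum among 542 cells sorted as DP, DN, CD4 or CD8. The other groups held 175 DN, 96 CD4 and 91 CD8 cells. All came from the thymus of male mice labelled as 7 weeks old. The study's methods name C57BL/6, an inbred strain, and the labels name no genetic change or treatment in any group. scATAC-seq cuts accessible DNA with a transposase in each cell and counts the fragments in peaks. No animal was named for any cell, so each sort counted as 1 sample and no test between sorts was possible. Intervals are exact 95% intervals that cover counting error only, and reads amplified by PCR without molecular identifiers are not independent molecules.

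The labels did not name the antibodies of the sorts, and the groups are described here as the labels give them. DN cells carry neither coreceptor, DP cells carry both CD4 and CD8, and the CD4 and CD8 groups carry 1 of them. In the DP stage the recombinase made by Rag1 and Rag2 joins the segments of the TCR alpha chain, and E proteins bind E-box sequences in many enhancers of the stage. Cells that pass selection lose recombinase expression, take on the CD4 or CD8 lineage and gain genes for leaving the thymus.

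A peak was taken as open in a cell with at least 1 count there, and each such peak and cell is an open call. DP cells had 398311 open calls, with 770 to 8890 open peaks per cell and a median of 3373. The medians were 3219 in DN, 4451 in CD4 and 4521 in CD8 cells. Cells carried a number in their label, which was rounded down to a multiple of 1000 to define label series. Series 4000 held 63 DP cells and series 31000 held 22, and these were the series with cells of every sort. The remaining 31 DP cells were in series 3000, which held no other sort. Most DN cells were likewise in series with no other sort, with 32 in series 1000, 32 in 2000 and 58 in 32000, and 30 in series 4000 and 23 in 31000. Series 31000 was shallow, with a median total of 1586 counts in DP cells against 4117 in series 4000. Values within series 4000 or 31000 are therefore given for the main loci, and counted for the gene lists, and the part of depth and label series in the differences was not tested otherwise.

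The following peaks, more open in DP cells than in most other sorts, were chosen from the marker loci and the highest-ranked peaks because E-box letters recur in them. The central 300 bases are printed 5′ to 3′ on the plus strand of GRCm38.p6 from RefSeq, and capitals mark CAGGTG or CAGCTG on either strand, where CACCTG is the reverse complement of CAGGTG.
73101 bases upstream of the Rag2 start, chr2:101551467-101551766: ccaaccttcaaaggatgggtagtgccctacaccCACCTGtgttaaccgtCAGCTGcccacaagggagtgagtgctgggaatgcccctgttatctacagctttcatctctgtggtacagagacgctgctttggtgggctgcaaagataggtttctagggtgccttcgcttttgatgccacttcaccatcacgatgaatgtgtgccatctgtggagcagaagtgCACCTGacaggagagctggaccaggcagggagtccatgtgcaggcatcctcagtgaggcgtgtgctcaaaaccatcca
3842 bases upstream of Cd8a, chr6:71369435-71369734: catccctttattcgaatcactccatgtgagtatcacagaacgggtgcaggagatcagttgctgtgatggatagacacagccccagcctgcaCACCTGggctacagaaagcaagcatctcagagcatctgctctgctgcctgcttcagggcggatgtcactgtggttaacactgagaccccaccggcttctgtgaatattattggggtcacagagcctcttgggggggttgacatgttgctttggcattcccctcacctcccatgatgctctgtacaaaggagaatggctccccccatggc
12365 bases upstream of Cd4, chr6:124900436-124900735: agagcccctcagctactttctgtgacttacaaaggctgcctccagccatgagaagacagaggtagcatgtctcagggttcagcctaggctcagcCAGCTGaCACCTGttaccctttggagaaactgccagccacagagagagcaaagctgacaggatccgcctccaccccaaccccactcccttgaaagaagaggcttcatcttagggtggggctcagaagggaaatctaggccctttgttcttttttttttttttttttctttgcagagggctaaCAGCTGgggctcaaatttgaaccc
Phkb intron, chr8:86052024-86052323: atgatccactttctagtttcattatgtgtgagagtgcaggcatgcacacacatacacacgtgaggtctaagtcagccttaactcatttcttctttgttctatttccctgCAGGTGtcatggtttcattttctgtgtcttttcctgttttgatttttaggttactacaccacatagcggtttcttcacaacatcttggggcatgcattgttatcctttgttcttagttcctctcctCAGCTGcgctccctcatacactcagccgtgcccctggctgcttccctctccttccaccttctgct
Intergenic, nearest start Hlx, chr1:184411105-184411404: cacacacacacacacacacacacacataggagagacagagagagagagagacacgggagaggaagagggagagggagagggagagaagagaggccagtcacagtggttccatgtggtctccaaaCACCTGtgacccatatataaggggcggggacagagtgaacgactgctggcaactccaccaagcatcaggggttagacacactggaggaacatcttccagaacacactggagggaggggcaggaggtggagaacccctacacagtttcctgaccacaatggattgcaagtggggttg
Each of these windows held CAGGTG on at least 1 strand, which follows from the choice, and some other windows at the Cd8a and Cd4 loci held none. The central 300 bases at the start of Rag1 held it as well, while those at the start of Rag2 held neither E-box and none of the other motifs searched.

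The recombinase loci were open in more DP cells than cells of any other sort. Rag1 (chr2:101638282-101649501) and Rag2 (chr2:101624718-101632529) lie side by side on opposite strands. Their start peaks had 54 open calls in DP cells, 22 in DN, 24 in CD8 and 0 in CD4 cells. Per 10000 open calls of the sort, the signal was 1.36 in DP, 0.254 in DN and 0.587 in CD8. DP cells stood highest and CD4 cells had no call. The DP signal was 5.35 times that of DN (interval 3.20 to 9.22) and 2.31 times that of CD8 (1.40 to 3.91). With CD4 set to a floor of 3 calls over the group, it was 20.2 times that of CD4. The exact interval of the ratio over CD4 begins at 15.8.

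At least 1 of these start peaks was open in 47 of 116 DP cells, which is 40.5% (31.5 to 50.0%). The share was 10.9% in DN (6.67 to 16.4%), 20.9% in CD8 (13.1 to 30.7%) and 0 of 96 in CD4, which allows up to 3.13% by the floor of 3 cells and 3.77% by the exact limit. Both starts were open in 7 of 116 DP, 3 of 175 DN, 5 of 91 CD8 and 0 of 96 CD4 cells. After every cell was thinned to 1000 counts, which equalizes total counts and not the number of open peaks, the shares were 13.8% in DP, 1.71% in DN, 2.20% in CD8 and 0 in CD4. The order of DP above the rest held at equal total counts. Within series 4000 the starts had 29 calls in DP, 8 in DN, 24 in CD8 and 0 in CD4, and the DP signal was 2.70 times that of DN. In series 31000 the calls were 3 in DP and 0 in each other sort, too few for a ratio, while the 31 DP cells of series 3000 had 22.

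The start peak of Rag1 is centered 102 bases upstream of the gene but lies nearer to a start of the neighboring transcript B230118H07Rik, so the peak assigned to Rag1 itself held 0 DP calls. The pair of start peaks was therefore chosen after the values were seen. Further peaks of the region stood out in DP cells too. The peak 73101 bases upstream of Rag2 had 41 calls in DP, 26 in DN, 3 in CD4 and 20 in CD8 cells, and the peak 61368 bases upstream had 14, 3, 0 and 6 in the same order. The peak 16028 bases upstream had 18 calls in DP, 6 in DN, 4 in CD4 and 8 in CD8 cells. CD8 cells lay between DP and CD4 cells per 10000 calls at each of these peaks.

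**Figure D1:**
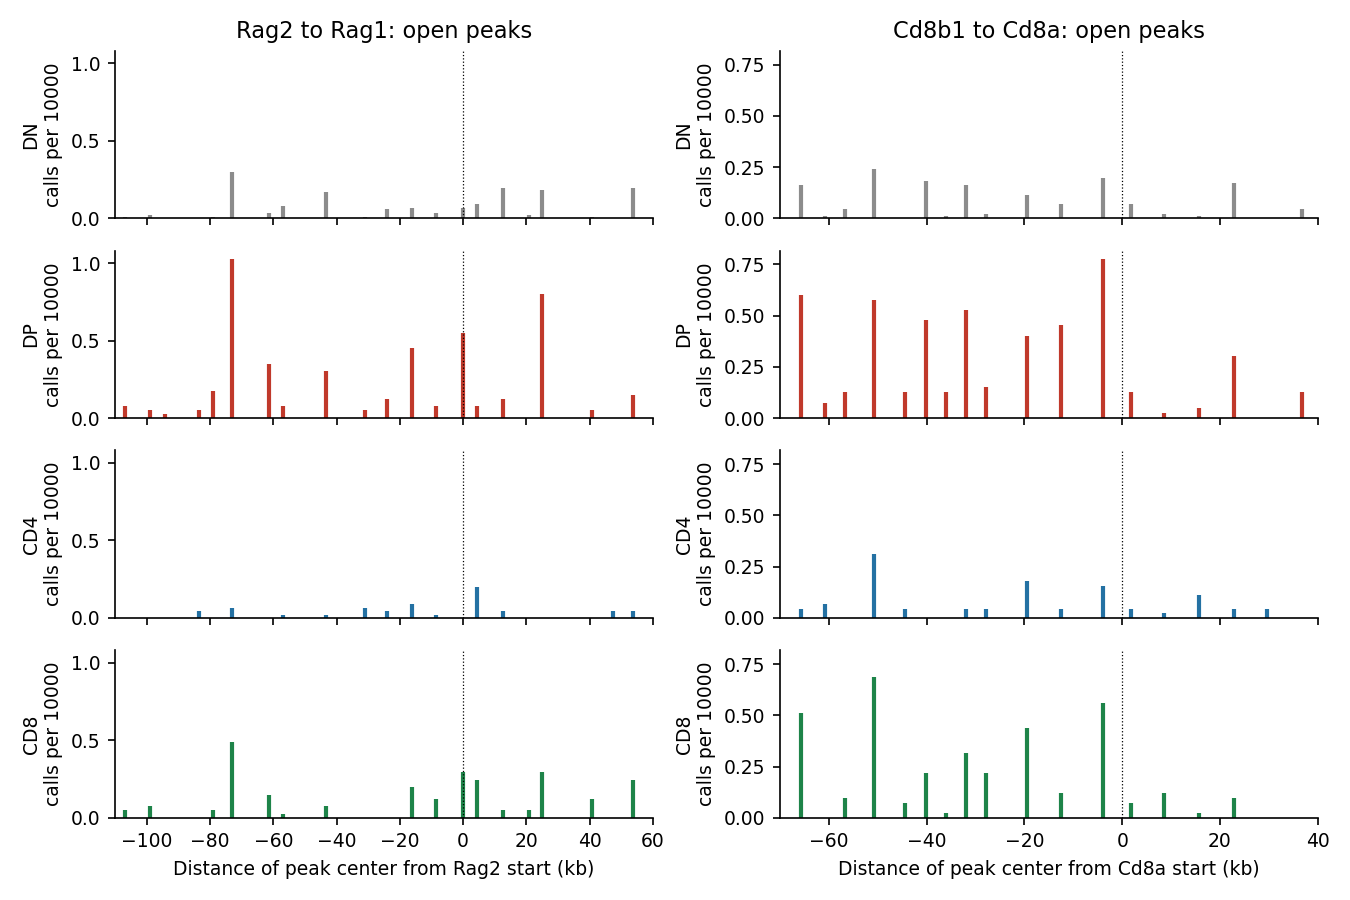
Open calls per 10000 calls of each sort (y axis) in peaks that do not overlap, by distance of the peak center from the start of Rag2 (left) or Cd8a (right) in kb. The DP row is highest at the far upstream peak and at both Rag starts, and the CD8 row follows it most closely at the Cd8 genes.

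Dntt (chr19:41029275-41059525), which encodes the polymerase that adds untemplated bases at TCR joints, was the recombinase gene with enough calls for a comparison of its locus. A locus here is all peaks, none overlapping, whose nearest transcription start belongs to the gene and lies within 50000 bases. Dntt had 67 calls in DP, 76 in DN, 30 in CD4 and 31 in CD8 cells. The DP signal was 1.92 times that of DN (1.36 to 2.70), 2.50 times that of CD4 (1.60 to 3.98) and 2.22 times that of CD8 (1.43 to 3.52). Within series 4000 the ratios were 2.19, 2.46 and 2.48. In series 31000 it had 3 calls in DP and 2 in CD8 cells, too few for a ratio.

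The Cd8 genes separated DP from DN and CD4 cells and less from CD8 cells. Cd8a (chr6:71373427-71379173) and Cd8b1 (chr6:71322788-71337494) encode the chains of CD8. Cd8a had 2.13 calls per 10000 in DP, 0.657 in DN, 0.650 in CD4 and 1.44 in CD8 cells. DP and CD8 cells were high and the other sorts were low. The DP ratio was 3.25 over DN (2.30 to 4.63), 3.28 over CD4 (2.13 to 5.19) and 1.48 over CD8 (1.05 to 2.10). Series 31000 held 4 calls in DP against 5 in CD8, a ratio of 0.473 against 1.61 in series 4000, so the order of DP and CD8 was not the same in each. Cd8b1 gave 3.19 over DN (2.23 to 4.59), 4.42 over CD4 (2.68 to 7.63) and 1.29 over CD8 (0.913 to 1.82), an interval that includes 1.

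Single peaks of the Cd8 region differed in how DP and CD8 cells compared. The peak 3842 bases upstream of Cd8a, printed above, had 31 calls in DP, 17 in DN, 7 in CD4 and 23 in CD8 cells, and it was open in 26.7% of DP and 25.3% of CD8 cells. The peak 12537 bases upstream had 18, 6, 2 and 5 calls in DP, DN, CD4 and CD8 cells, and the DP ratio over CD8 was 3.70 (1.32 to 12.7). At the start of Cd8b1 CD8 cells had 28 calls and DP cells 23, a ratio of 0.843 (0.464 to 1.52). The Cd8b1 intron peak 40164 bases upstream of Cd8a had 19 DP calls and 0 CD4 calls.

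At Cd4 the comparison of DP with the other sorts depended on how the locus was counted. Cd4 (chr6:124864692-124888221) had 23 calls in DP, 35 in DN, 26 in CD4 and 34 in CD8 cells, and the DP ratios were 1.43 (0.808 to 2.49), 0.990 (0.540 to 1.81) and 0.695 (0.391 to 1.21) over DN, CD4 and CD8. All 3 intervals include 1. Within series 4000 the ratios were 2.39, 1.19 and 0.793, with 16 calls in DP and 5 in DN cells. With overlapping peaks included, which can count a fragment more than once, they were 2.13, 1.20 and 1.44, with 90 DP and 92 DN calls. Upstream, the peak at 12365 bases, nearest to the start of Lag3 and so not counted for Cd4, had 35 calls in DP, 23 in DN, 12 in CD4 and 20 in CD8 cells. Its DP ratios were 3.32 over DN (1.90 to 5.88), 3.27 over CD4 (1.66 to 6.91) and 1.80 over CD8 (1.01 to 3.29). The peak just inside the gene, 2069 bases from its start, was open in 13.8% of DP, 14.3% of DN, 26.0% of CD4 and 27.5% of CD8 cells. DP cells thus stood above DN and CD4 cells at the Rag starts and at Cd8a, while the pooled Cd4 locus gave no ratio with an interval apart from 1.

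**Figure D2:**
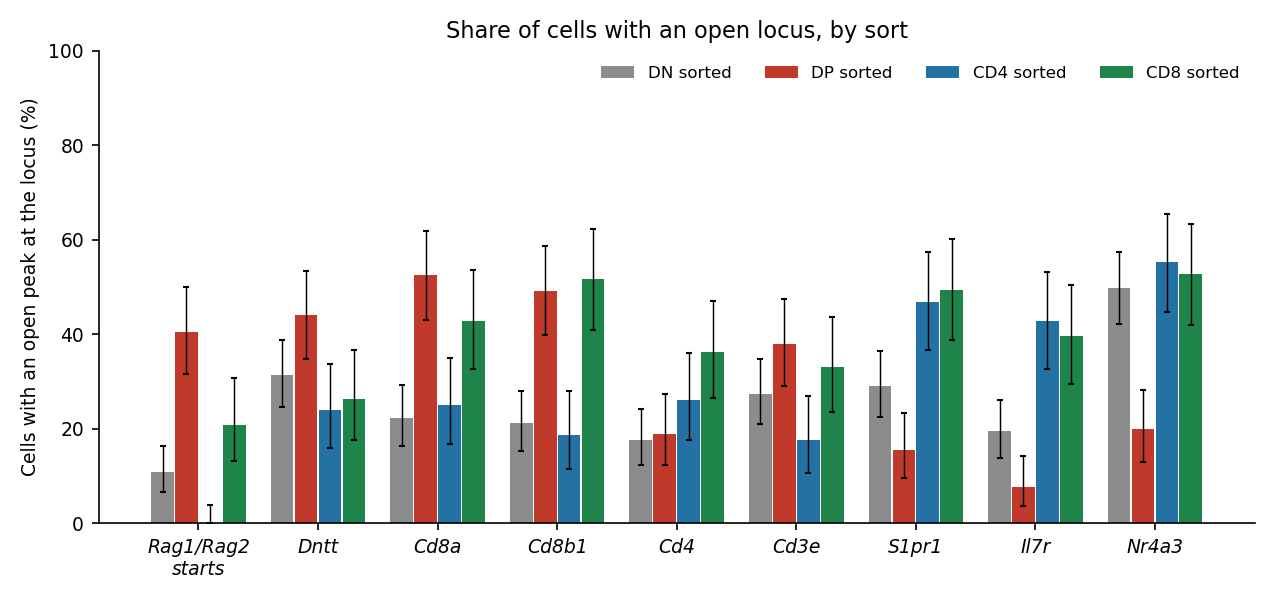
Share of cells (y axis, %) with at least 1 open peak at each locus, by sort, with exact binomial 95% intervals as error bars. DP bars are highest at the Rag starts, Dntt and Cd8a, reaching 52.6% at Cd8a, and lowest at S1pr1, Il7r and Nr4a3.

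Across the genome, 3688 gene loci had at least 100 calls over the sorts and were compared. Of these, 464 were at least 1.5-fold higher in DP than DN (12.6%) and 342 were as much lower (9.27%). Against CD4, 594 were higher (16.1%) and 547 lower (14.8%), and against CD8, 401 were higher (10.9%) and 448 lower (12.1%). DP cells exceeded every other sort by that fold at 123 loci (3.34%) and fell below every other sort at 167 (4.53%). These shares are the background for the counts in the gene lists below. In series 4000 alone, which is part of the pooled values, 122 of the 123 and 156 of the 167 kept their direction against each sort. That series holds 386583 of the 408942 CD8 calls, 369996 of the 445903 CD4 calls and 236362 of the 398311 DP calls. Agreement with the pooled direction was therefore largely built in. In series 31000, with few calls, 75 and 80 did.

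Genes of the rearrangement stage, taken from a list of 15, were often higher in DP cells. Of the 14 with enough calls, 7 were called higher than in DN, 8 than in CD4 and 4 than in CD8 cells, and none was called lower. The median log2 ratios were 0.54, 0.81 and 0.41, beside 0.12, 0.03 and 0.04 over all loci compared, and within series 4000 they were 0.49, 0.60 and 0.48. Endou, an endoribonuclease gene, and Ccr9, a chemokine receptor gene, were among those that passed against every sort. Endou had ratios of 1.67, 3.36 and 1.96 and Ccr9 of 2.41, 2.12 and 1.52 over DN, CD4 and CD8. Plxnd1, a plexin gene that steers DP cells within the thymus, had 2.56 and 3.79 over DN and CD4 and 1.36 over CD8. Bcl2l1, which encodes the survival protein Bcl-xL, had 1.74, 1.92 and 1.297. Themis and Slamf6 were the members with the lowest means, with ratios from 0.707 to 1.21 and from 0.831 to 1.53. Ly6d had too few calls for a comparison, with 8 in DP cells.

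Of the coreceptor list, 2 of 3 genes were higher than in DN and CD4 and none than in CD8, and none was lower. Of the CD3 and pre-TCR genes, which encode the signaling chains of the receptor, 4 of 5 were compared. Cd247 was higher against each sort, at 1.96, 1.96 and 1.52, and Cd3e against DN and CD4, at 1.58 and 2.83. Cd3d was lower than in CD4 and CD8, at 0.476 and 0.623. Ptcra, the pre-TCR alpha chain gene, had only 12 DP calls.

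The list of genes for maturation and egress from the thymus ran the other way. Of 9 members compared out of 15, 5 were lower in DP than CD4, 4 than CD8 and 2 than DN, and 1 was higher against each sort. The median log2 ratios were -0.35 over DN, -0.88 over CD4 and -0.43 over CD8. Against DN the median was 0.09 within series 4000, so that part did not hold within the series. Il7r, the interleukin 7 receptor gene, had 9 calls in DP, 44 in DN, 55 in CD4 and 49 in CD8 cells. It was open in 7.76% of DP and 42.7% of CD4 cells. Its DP ratios were 0.446 over DN (0.191 to 0.925), 0.183 over CD4 (0.0796 to 0.374) and 0.189 over CD8 (0.0814 to 0.388), and within series 4000 they were 1.04, 0.224 and 0.266. S1pr1, the receptor that guides cells out of the thymus, had 20 calls in DP, 68 in DN, 75 in CD4 and 65 in CD8 cells, with ratios of 0.641, 0.299 and 0.316 that were 1.33, 0.374 and 0.422 within series 4000. The member that was higher was Il4ra, the interleukin 4 receptor gene, at 2.08, 1.64 and 1.81.

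Selection and TCR signal genes, of which 11 of 14 were compared, had 4 lower and none higher than in CD4, 3 lower and 1 higher than in CD8 and 2 lower than in DN. Of all loci compared, 14.8, 12.1 and 9.27% were lower in that order. The median log2 ratios were 0.25 over DN, -0.46 over CD4 and -0.16 over CD8, beside 0.12, 0.03 and 0.04 over all loci. Against DN the median thus ran opposite to the 2 lower members. Nr4a3, an immediate target of TCR signaling, had 25 calls in DP, 119 in DN, 101 in CD4 and 71 in CD8 cells. Its ratios were 0.458 over DN (0.285 to 0.709), 0.277 over CD4 (0.171 to 0.433) and 0.362 over CD8 (0.220 to 0.578), and 0.348, 0.241 and 0.337 within series 4000. Egr3, another target, had 0.511, 0.560 and 0.813. Cd27 was the member called higher, at 1.54 over CD8. Cd69, a marker of recent TCR signaling, had ratios from 0.901 to 0.952 over the 3 sorts.

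Factors of T cell identity, 8 of 9 compared, had 2 higher than in DN and 1 lower than in each of CD4 and CD8. Among all loci compared, 12.6% were higher than in DN, and 14.8% and 12.1% were lower than in CD4 and CD8. The counts lower than in CD4 and CD8 were near those shares. The lower one was Satb1, a chromatin organizer, at 0.621 over CD4 (0.463 to 0.828) and 0.565 over CD8 (0.422 to 0.754), with 1.29 over DN. Bcl11b, a factor of T lineage commitment, was higher than in DN at 1.51. In the Ikaros family, 3 of 5 were compared, and Ikzf2, which encodes Helios, was lower against each sort at 0.350, 0.428 and 0.310. Ikzf3 was lower than in CD4 at 0.538, and Ikzf1 lay between 1.03 and 1.34. Of E proteins and their Id inhibitors, 4 of 6 were compared. Tcf12, which encodes the E protein HEB, was lower than in DN at 0.605 and than in CD8 at 0.658, and Id3 was higher than in CD4 at 2.03.

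Of the 10 proximal TCR signaling genes, 4 were higher and none lower than in DN, 2 higher and 1 lower than in CD4 and 2 lower than in CD8. For the lists of this paragraph, the shares higher and lower over all loci were 12.6 and 9.27% against DN. They were 16.1 and 14.8% against CD4 and 10.9 and 12.1% against CD8. Lck, the kinase of the coreceptors, had ratios of 1.89, 1.54 and 1.09. Among lineage choice regulators, 3 of 6 were compared. Runx3, the CD8 lineage factor, was lower than in DN and CD8, at 0.575 and 0.580. Patz1, a zinc finger gene, was higher than in CD4 and CD8, at 1.61 and 1.57. Zbtb7b, the CD4 lineage factor, was under the minimum, with 3 calls in DP against 28 in CD4 cells. MHC class I genes, 5 of 11 compared, had 2 lower than in DN, 2 lower and 1 higher than in CD4, and 1 lower than in CD8. H2-D1, a class I heavy chain, was lower against each sort at 0.508, 0.307 and 0.479.

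Cell cycle genes, 8 of 10 compared, had 1 higher and 1 lower against each of DN and CD4 and 1 lower against CD8. Shares higher and lower over all loci were 12.6 and 9.27% against DN, 16.1 and 14.8% against CD4 and 10.9 and 12.1% against CD8. The counts were near those shares. Ccnd2, a D-type cyclin, was the lower one each time, at 0.281, 0.271 and 0.411. Of the DN-stage genes, 5 of 15 had enough calls, and 1 was called higher in DP than DN, 2 than CD4 and 1 than CD8, with none lower. The gene higher than in DN was Il2ra, a defining DN marker, with 65 calls in DP and 94 in DN cells and a ratio of 1.51 (1.08 to 2.09) that was 1.03 within series 4000. Notch3 was at 0.899 over DN and 4.85 over CD4, and Erg at 4.11 over CD8. The other 10 were not compared, and 5 of the list had at most 3 DP calls.

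Over all lists together, with each gene counted once, members passed the 1.5-fold limit 97 times against a sort. Against DN 21 were higher and 10 lower, against CD4 23 and 17, and against CD8 10 and 16. In the same order, 12.6 and 9.27%, 16.1 and 14.8%, and 10.9 and 12.1% of all loci compared passed. The 97 were not tested against these shares. Within series 4000, whose cells are part of the pooled values, 94 of the 97 had the same direction and 73 passed the limit again. That series supplied most CD4 and CD8 calls but only 176241 of the 867665 DN calls. Agreement against CD4 and CD8 was therefore largely built in. The exceptions in direction were Il7r, S1pr1 and Aqp11, each against DN. Bcl2l1 was at 1.20, 1.38 and 0.995 in that series, Patz1 at 1.11 and 1.24 over CD4 and CD8, and Lck at 1.31 and 1.35 over DN and CD4.

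Markers of other cell types were sparse in DP cells. Of 7 B cell markers, 1 had enough calls, Ebf1, which was higher in DP than CD4 at 2.65 and had 1.16 and 1.11 over DN and CD8. Of 8 NK and innate-like markers, Klrb1c was compared and lay between 1.04 and 1.26. No myeloid and dendritic, gamma delta T, erythroid or epithelial and stromal marker had enough calls. Cd79a, Blnk, Lyz2, Cd14, Fcer1g, Klrd1, Nkg7, Gata1, Hbb-bs, Foxn1 and Psmb11 were at 0 in DP cells, while other members of their lists had DP calls. The summed signal of the B cell list was 1.00 per 10000 in DP and 0.920 to 1.33 in the other sorts, and that of the myeloid and dendritic list 1.36 and 1.10 to 1.69. The NK list summed to 1.86 in DP and 2.35 to 2.79 elsewhere, the gamma delta list to 1.08 and 0.929 to 1.57, the erythroid list to 0.427 and 0.196 to 0.392, and the epithelial list to 0.803 and 0.587 to 1.14. DP cells were thus highest for the erythroid list and lowest for the NK list. The part of other cell types in the differences above was not tested.

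The TCR loci were read by summing peaks nearest to each kind of segment, a grouping made after the data were seen. Peaks at Trgv, Trgj and Trgc segments of the gamma locus had 16 calls in DP, 160 in DN, 56 in CD4 and 28 in CD8 cells. DP signal was 0.218 times that of DN (0.122 to 0.365), 0.320 times that of CD4 (0.171 to 0.566) and 0.587 times that of CD8 (0.297 to 1.12), and 0.257, 0.320 and 0.584 within series 4000. DP cells were lowest, with an interval against CD8 that includes 1. At Trac, the alpha constant gene, DP signal was 1.47 times that of DN (1.05 to 2.04) and 0.968 and 1.20 times that of CD4 and CD8. Over DN, CD4 and CD8 it was 1.86, 0.961 and 1.22 in series 4000 and 0.993, 0.944 and 0.591 in series 31000. Traj peaks had 35 calls in DP and 31 in DN cells, a ratio of 2.46 (1.47 to 4.12) that was 0.895 within series 4000. Trav peaks were at 1.28 over DN (1.06 to 1.55), with 1.11 in series 4000 and 0.744 in series 31000, so the direction was not the same in each, and Trbv peaks between 0.796 and 1.10 over the 3 sorts. Delta segments had 47 calls in DP, 100 in DN, 31 in CD4 and 24 in CD8 cells, with DP ratios of 1.02 over DN (0.708 to 1.46), 1.70 over CD4 (1.06 to 2.76) and 2.01 over CD8 (1.21 to 3.44) that were 1.24, 1.515 and 2.13 within series 4000. Trbd, Trbj and Trbc peaks were at 1.32 over DN (0.933 to 1.84), 1.55 over CD4 (1.02 to 2.36) and 1.49 over CD8 (0.978 to 2.29), with 0.803 and 0.338 over CD4 and CD8 in series 31000.

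Loci were also ranked by the DP ratio over the nearest other sort, among those with the same direction against each sort in series 4000 and 31000. The first 10 were on none of the lists above, and were Insl5, Esrp2, Medag, Snai1, Xrra1, 4930426L09Rik, Syt13, Ypel2, Med21 and Gm525. They were chosen as extremes, so their ratios are a description. Insl5 (chr4:103017872-103026842), a peptide hormone gene, was open in 42.2% of DP cells against 17.7 to 27.5% elsewhere. It had 71 calls in DP, 46 in DN, 18 in CD4 and 31 in CD8 cells, with ratios of 3.36 (2.29 to 4.98), 4.42 (2.60 to 7.87) and 2.35 (1.52 to 3.71). Xrra1 (chr7:99859116-99917822) had the highest ratios of the 10 over DN and CD4, at 4.17 (2.71 to 6.50) and 8.09 (4.01 to 18.5), with 65 calls in DP and 9 in CD4. Esrp2, a splicing regulator of epithelia, had 57, 46, 18 and 25 calls in DP, DN, CD4 and CD8 cells. Snai1, a zinc finger repressor, had 41, 44, 14 and 20. After thinning, DP cells had the highest share of open cells at 9 of the 10 loci. Thinning draws from the counts that chose these loci, so that order was largely set by the choice. The exception was Snai1, open in 2.59% of DP (3 cells), 6.29% of DN, 3.13% of CD4 and 8.79% of CD8 cells. In series 31000 the 10 loci had 2 to 9 DP calls each, and Xrra1 was at 1.86 over DN there against 4.05 in series 4000.

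Among the 5 loci lowest by the mirrored rule were Chst11, Rexo5, Trps1 and Plekha5. Chst11 (chr10:82985498-83195900), a chondroitin sulfotransferase gene, had 3 calls in DP, 81 in DN, 25 in CD4 and 18 in CD8 cells. Its DP ratios were 0.0807 (0.0163 to 0.244), 0.134 (0.0260 to 0.440) and 0.171 (0.0323 to 0.586), and in series 31000 it had 1 DP call against 4 in DN, 4 in CD4 and 2 in CD8 cells. None of these 4 had more than 3 calls in the DP cells of series 3000.

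**Figure D3:**
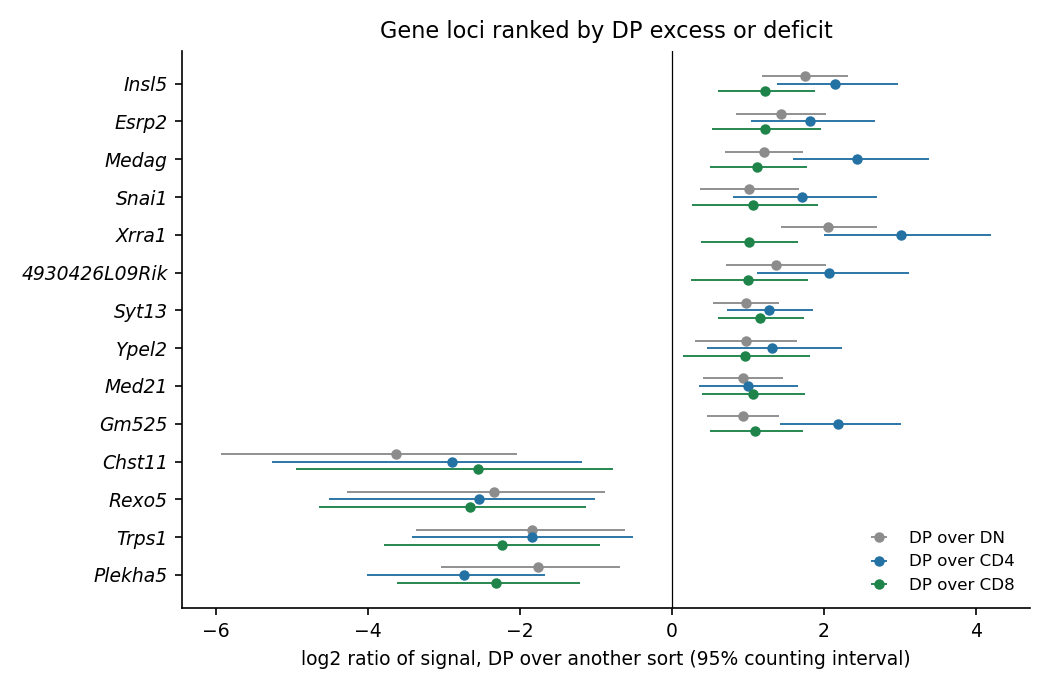
log2 ratio of locus signal in DP cells over DN, CD4 and CD8 cells (x axis) for the 10 highest loci by the ranking rule and the 4 low ones named above, with 95% counting intervals. The widest intervals belong to Chst11 and Rexo5, which had 3 and 4 DP calls.

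Of single peaks, 9106 had at least 50 calls and were compared. In DP cells 681 were at least 2-fold higher than in DN (7.48%) and 431 lower (4.73%), 1027 were higher than in CD4 (11.3%) and 743 lower (8.16%), and 653 were higher than in CD8 (7.17%) and 604 lower (6.63%). Every other sort was exceeded at 133 peaks (1.46%), and DP was below every other sort at 222 (2.44%). Nearly all of these peaks were sparse. With a minimum of 100 calls, 1 of 2114 peaks was higher than every other sort and 5 were lower. Both sets held a smaller share of promoter peaks than the peaks compared, to which they were not matched for calls. A promoter peak, centered within 2000 bases of a start, made up 65.9% of the peaks compared, 16.5% of the 133 and 23.4% of the 222. The median distance to a start was 184 bases over the peaks compared and 26021 and 18234 bases in the sets. Of the 133, 65 were centered in introns.

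By the same rule, the first peak was centered in a Phkb intron (peak chr8:86050174-86054173), open in 32.8% of DP, 12.6% of DN, 8.33% of CD4 and 9.89% of CD8 cells. After thinning the shares were 12.9, 1.71, 3.13 and 4.40%. A peak in an intron of Vti1a (chr19:55539842-55543841), with Tcf7l2 as the nearest start, had 37 calls in DP, 23 in DN, 10 in CD4 and 6 in CD8 cells. An intergenic peak nearest to Hlx (chr1:184409255-184413254) had 39, 15, 0 and 12 calls. CD4 cells had no call there. Lower in DP cells were intron peaks of Utrn, Rexo5, Sox5 and Pip4k2a and an intergenic peak near 2610301B20Rik, with 1 to 4 DP calls each. The Sox5 peak (chr6:144668999-144672998) was open in 0.862% of DP cells, 21.1% of DN, 33.3% of CD4 and 15.4% of CD8 cells.

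Letters of DNA motifs were counted in the central 300 bases of each peak, on both strands. The motifs described here were the E-boxes CAGGTG and CAGCTG, ETS CAGGAAG, RUNX TGTGGTT, TCF/LEF ATCAAAG, the GATA string AGATAAG, NR4A AAAGGTCA, AP-1 TGACTCA, NFAT TGGAAAA, NF-kB GGGACTTTC, EGR GTGGGCG, SP/KLF GGGCGGG, IRF GAAACTGAA and CTCF AGGGGGCGC. Of all 138317 peaks, 27.95% held CAGGTG and 20.1% CAGCTG. ETS letters were in 18.8%, RUNX in 10.7%, SP/KLF in 10.5%, AP-1 in 6.11%, NFAT in 5.61%, TCF/LEF in 4.96%, EGR in 3.99%, GATA in 3.56%, NR4A in 1.298%, CTCF in 1.02%, IRF in 0.805% and NF-kB in 0.362%.

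E-box letters were more frequent in the peaks that were higher in DP cells. CAGGTG was in 85 of the 133 (63.9%), in 49 of the 222 lower ones (22.1%) and in 23.3% of all peaks compared. Since promoters differ in base composition, peaks over 2000 bases from a start were also read alone, where CAGGTG was in 75 of 111 higher peaks (67.6%), in 20.0% of the 170 lower ones and in 36.2% of the 3103 compared. CAGCTG followed the same order at 53.2, 16.5 and 30.8%. RUNX ran the other way, at 15.3% of the higher, 30.0% of the lower and 22.2% of all, as did AP-1 at 3.60, 13.5 and 7.64%. ETS differed little, at 31.5, 34.1 and 32.2%. The median GC content of the distal higher, lower and compared peaks was 51.3, 48.7 and 51.3%. All 10 of the highest-ranked peaks held CAGGTG.

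The same motifs were read without any choice of peaks, as the share of all distal open calls that lay in peaks with the letters. With CAGGTG the share per DP cell ran from 25.2 to 43.0% with a median of 37.5%, and the medians were 32.3% in DN, 26.5% in CD4 and 29.4% in CD8 cells. The ranges of the sorts overlapped. Pooled, the DP share was 1.13 times that of DN, 1.35 times that of CD4 and 1.17 times that of CD8. It was 1.075, 1.35 and 1.16 times in series 4000 and 1.16, 1.301 and 1.20 times in series 31000. CAGCTG gave 1.10, 1.32 and 1.16. RUNX was below 1 against each sort at 0.893, 0.919 and 0.896, and NR4A at 0.859, 0.697 and 0.832. Those directions held in both series. AP-1 was at 0.896, 0.885 and 0.911 pooled and below 1 in series 4000, but at 1.05, 1.015 and 1.01 in series 31000.

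**Figure D4:**
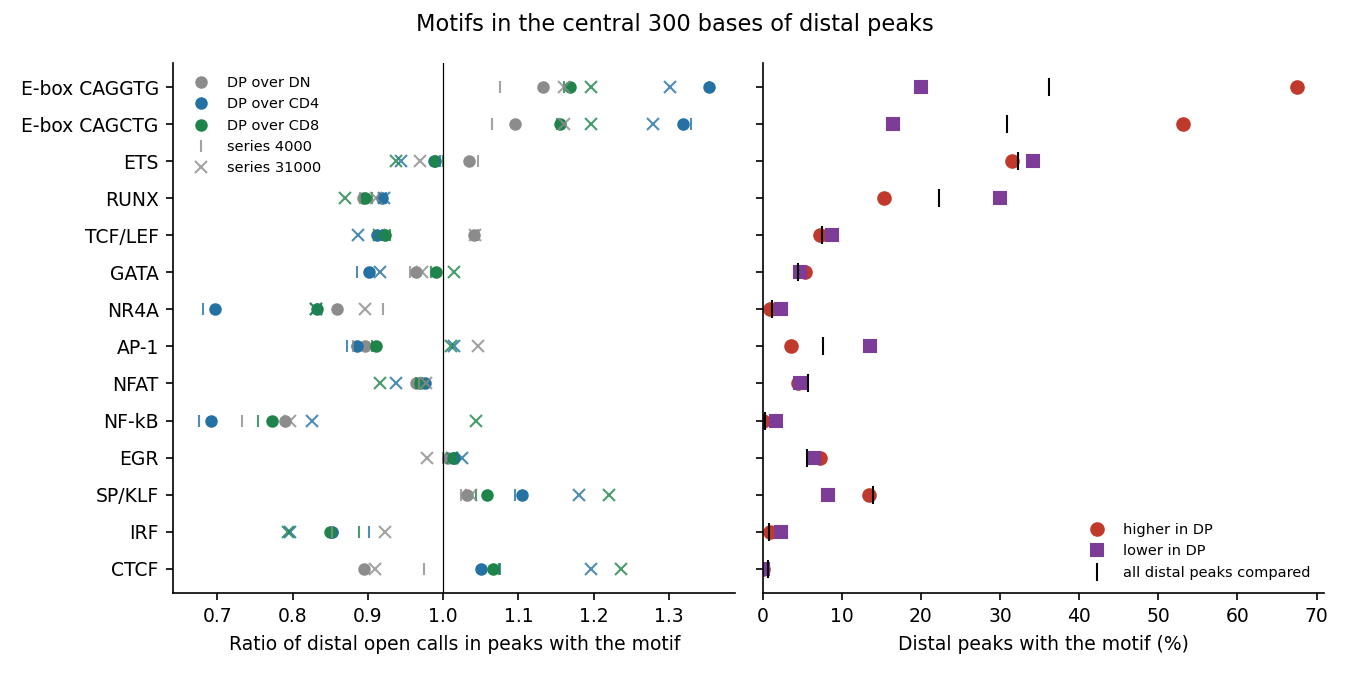
Left, ratio of the share of distal open calls in peaks with each motif, DP over DN, CD4 or CD8 (x axis), pooled as circles and within label series 4000 and 31000 as bars and crosses. Right, percent of distal peaks with each motif among those higher or lower in DP than every other sort and among all distal peaks compared. CAGGTG has 67.6% of higher and 20.0% of lower peaks.

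Peaks chosen in series 4000 were then read in cells that had no part in the choice. At a 2-fold excess over every other sort and at least 20 calls, 265 peaks that do not overlap were chosen in series 4000. In series 31000 they held 1.65% of the calls of DP cells (1.49 to 1.82%), 0.807% of DN, 0.753% of CD4 and 1.01% of CD8 calls. The DP ratios were 2.04 over DN (1.74 to 2.40), 2.19 over CD4 (1.89 to 2.54) and 1.63 over CD8 (1.34 to 2.00). DP cells of series 3000 had 2.02% of their calls in the set. The reverse choice, in the shallower series 31000, gave only 3 peaks, with ratios in series 4000 of 1.46 (0.947 to 2.29), 2.92 (1.91 to 4.52) and 1.25 (0.891 to 1.75).

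Individual DP cells varied around that level. In the 53 DP cells of series 3000 and 31000 the share of calls in the 265 peaks ran from 0.426 to 3.72% with a median of 1.93%. Only 3 of the 53 lay below the DN median of 0.880%. No cell of the 145 DN and 41 CD4 cells reached the DP median, and 1 of 14 CD8 cells did. That median includes series 3000, which holds no other sort. In series 31000 alone the medians were 1.58% in DP, 0.621% in DN, 0.747% in CD4 and 0.936% in CD8 cells, and the DP median was reached by 2 of 23 DN, 0 of 41 CD4 and 3 of 14 CD8 cells. All 3 low DP cells were in that series. In a second set of 78 peaks, at least 2-fold higher in both CD4 and CD8 than in DP and DN cells of series 4000, the median share was 0.205% in DP, 0.330% in DN, 0.538% in CD4 and 0.413% in CD8 cells of other series. DP cells were lowest, and 3 of the 53 had no call in that set, as had 1 of 14 CD8 cells. In series 31000 the DP ratio for this set was 0.531 over DN (0.367 to 0.757), 0.351 over CD4 (0.249 to 0.485) and 0.382 over CD8 (0.256 to 0.567). A set of 85 peaks chosen in the same way as higher in DN did not separate the sorts. Its DP ratio over DN in series 31000 was 1.06 (0.788 to 1.42), and the median share per cell of other series was 0.299% in DP and 0.336% in DN cells.

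**Figure D5:**
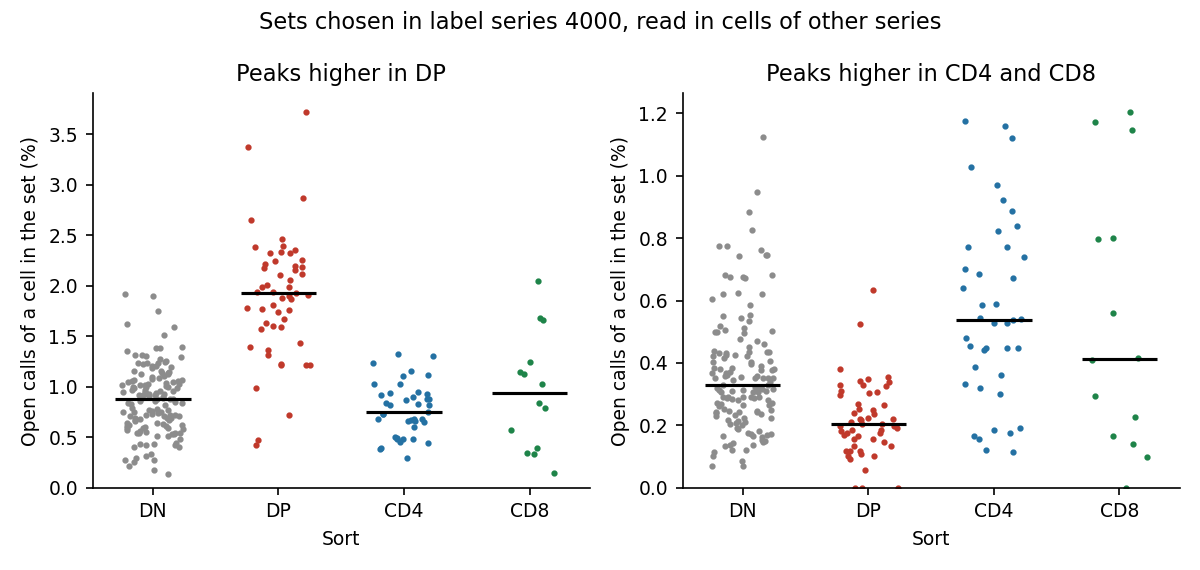
Share of each cell's open calls (y axis, %) in peaks chosen in label series 4000 as higher in DP (left) or in both CD4 and CD8 (right), for cells of the other series, with 1 dot per cell and a line at the median. The DP median is 1.93% on the left and 0.205% on the right.

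DP cells had at least 1 call in 37194 of 62516 peaks that do not overlap (59.5%), and 6247 peaks were open in at least 10% of DP cells. Promoter peaks took 48.5% of DP calls, 47.7% of DN, 45.7% of CD4 and 45.6% of CD8 calls. In DP cells of series 31000 they took 53.7%, and in those of series 4000 48.1%. Only 21 peaks were open in at least 50% of DP cells. Among promoters, that of Ypel5 was open in 60.3% of DP, 38.9% of DN, 34.4% of CD4 and 47.3% of CD8 cells, while Gsk3b, a kinase gene, was open in 59.5, 58.9, 59.4 and 54.9%.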

How the data were processed

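The scATAC-seq table held raw counts of fragments per peak and cell as the authors deposited it, with 138317 peaks, each 4000 bases wide. The authors trimmed adapters, mapped reads with Bowtie2, removed duplicates with Picard and ran MACS2 on the merged cells. Versions are not given in the sources used here. The submitters' processing notes list GRCm38.p5, and 26.25% of peak centers lay within 2000 bases of a GENCODE start. When the centers were moved by 100000 bases, 7.79% did. Sample groups came from the labels. The 1446 columns of total thymocytes (1436) and of unknown sort (10) and the scRNA-seq table were not used here.

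Cells with totals of at least 1000 were kept, and counts were limited to 1 per cell and peak, since 13.1% of the filled values in DP cells exceeded 1. Listed peaks overlap. Neighbors with centers 200 to 300 bases apart shared 82.2% of the open cells of the weaker peak, those 1500 to 2000 bases apart 25.7% and those 4000 to 6000 bases apart 21.0%. Loci therefore used 62516 peaks that do not overlap, taken in order of calls, while the counts of single peaks and motifs used all peaks. Starts, exons and genes were from GENCODE vM21, coordinates are 1-based, and sequences were from RefSeq GRCm38.p6. Signal is open calls per 10000 calls of the sort. A group under 3 calls was set to 3 where loci or peaks were called past a fold and where a floored value is given. Ratio intervals are exact conditional binomial, and shares are Clopper-Pearson. Thinning drew 1000 counts per cell at random. Doublets were not called. The calculations used Python 3.11.15 with numpy 2.4.6, scipy 1.17.1 and pandas 2.3.3 and were tested on simulated data.

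The cells, the 20 gene lists (169 genes) and the 15 motifs were chosen with earlier results of these data known. Named were the markers, up to 4 members of each list with the highest and lowest mean log2 ratio, and the 10 highest and 5 lowest loci and peaks by the ratio nearest to 1, with the same direction in both label series. Other names in the text were chosen after their values were seen. Some results chosen by these rules are not reported here.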

Additional observations from a re-analysis of the deposited data

How the results depend on the processing

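No paired analysis was possible because no animal was named and each sort counted as 1 sample. Of 261 values recomputed under alternatives, 144 stayed within their counting interval or within 1.5 times the count, 116 moved further and 1, whose interval excluded 1, changed direction. A sort with fewer than 3 calls was set to 3, and such floored ratios are not confidence limits. The Rag start ratio was 2.7 over DN within label series 4000, with a floored ratio of 15.1 over CD4 there. Thinning gave floored ratios of 4.74 over CD4 and 4.52 over CD8. Within series 31000 the floored Cd8a ratio over DN, which had 0 calls there, was 1.99 on 4 DP calls. It was 1.34 over CD4 and 0.473 over CD8, the last with the direction changed on 4 DP and 5 CD8 calls. The Cd4 ratio after thinning was 0.418 over CD4 and 1.33 over CD8, and with overlapping peaks 1.44 over CD8. The pooled Cd4 intervals include 1, and the ratio over DN ran from 0.846 after thinning to 2.13 with overlapping peaks and 2.39 in series 4000. The ratio over CD4 was above 1, at 1.06 to 1.2, without series 3000, in series 4000 alone and with overlapping peaks. Of the loci compared, 3.34% were higher and 4.53% lower than every other sort. Raw counts gave 6.11% lower (293 loci). Thinning left 69 loci, of which 0% were higher and 1.45% (1 locus) lower. Series 4000 alone gave 3.71% and 2.64% (45 and 32 loci), and no locus reached the minimum in series 31000. All peaks gave 3.87% and 6.23%, a 10 kb limit 3.31% and 2.52% (76 and 58 loci), and a minimum of 50 calls 3.38% and 7.65% (263 and 595 loci). Of single peaks, against 1.46% higher and 2.44% lower, raw counts gave 2.37% and 4.09% (281 and 485 peaks), a minimum of 100 calls 0.0473% and 0.237% (1 and 5 peaks), and one of 30 calls 2.44% and 2.90% (453 and 539 peaks). Over all peaks, promoters included, the CAGGTG share ratios were 1.08 over DN, 1.22 over CD4 and 1.10 over CD8. Against these, the central 1000 bases gave 1.02, 1.07 and 1.03, and distal peaks 1.13, 1.35 and 1.17. Over DN the all-peak ratio was 1.09 with raw counts, 1.04 in series 4000 and 1.07 without series 3000. Over CD4 it was 1.24 with raw counts, 1.17 in series 31000 and 1.25 with peaks that do not overlap, where it was 1.11 over CD8. The set chosen at 1.5-fold gave 1.53 over DN and 1.62 over CD4 in series 31000. Thinned and series 31000 counts are small by construction, and the cause of the other shifts was not tested. Ratios of sparse loci are limited by their calls, as the intervals show.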
